A study of Mus musculus with 16 samples.

Results

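Airway epithelium of mice that lack the integrin subunit beta6 was compared with that of wild type mice after repeated exposure to ovalbumin (OVA), a chicken egg protein that provokes allergic airway inflammation. The comparison takes 8 of the 16 expression arrays of the study: the 4 titled as knockout epithelium with OVA (ko_OVA) and the 4 titled as wild type epithelium with OVA (wt_OVA), chosen by genotype and agent as labelled. All mice were of the FvB strain and 6 to 8 weeks old at sensitization, which used 20 ug of OVA into the peritoneum on days 1, 4 and 7. They then received 10 ug of OVA into the nose weekly for 9 weeks, and epithelium was collected by brushing 24 h after the last dose. Saline-treated groups of both genotypes (wt_saline and ko_saline, 4 arrays each) served as background. The labels give neither the construct of the knockout nor a promoter, and a brushing can carry cells other than epithelium. The labels do not say that the arrays of a group are separate mice, so the p-values measure the spread between these samples.

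Integrin beta6 joins the alpha v subunit at the surface of epithelial cells, where the pair releases TGF-beta from its latent form. Mast cells are granule-bearing immune cells armed with IgE receptors. In mice they are divided by their proteases into a connective tissue type, which makes the chymases Cma1 and Mcpt4, tryptases and carboxypeptidase Cpa3, and a mucosal type, which makes the chymases Mcpt1 and Mcpt2 and is known to depend on TGF-beta for that pair.

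Mast cell genes differed between the genotypes after OVA in both directions, 11 higher and 2 lower in ko_OVA of 32 tested. Proteases of the connective tissue type were 5.13 to 9.66 times higher in ko_OVA for the 5 that passed the test, whereas the mucosal proteases Mcpt1 and Mcpt2 were 18.2 and 2.67 times lower. Eosinophil-associated ribonucleases Ear1 and Ear10 were also lower. No gene of the mucous, club, ciliated or basal cell lists passed the test. Values are signals divided by the 75th percentile of their array, in log2, with a common floor at -3.32, and a gene passed where limma gave a Benjamini-Hochberg adjusted p under 0.05 over all 18566 genes and unnamed transcripts tested. Of these, 19 were higher and 8 lower in ko_OVA, 0.145% of those tested, or 0.102% higher and 0.0431% lower. Dividing by the array median instead gave 24 higher and 5 lower, normexp background correction gave 6 and 1, and a fit of only the 8 OVA arrays gave 8 and 1. At least 2-fold differences were found in 18 and 7 of them, and 22 of the 27 had a gene symbol. The groups did not overlap for any of the 27, against 1.63% of all genes with every ko_OVA array above every wt_OVA array and 0.743% with every one below. The 27 were called on these same arrays, so their lack of overlap is no separate support.

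Signal strength differed between the arrays, with 75th percentiles from 78.0 intensity units on ko_OVA 4 to 631 on ko_OVA 1 and 43.3% (ko_OVA 4) to 74.5% (wt_OVA 1) of probes well above background. Markers of the airway lining were high in both groups. Epcam, an adhesion molecule of epithelium, had means of 3.97 ± 0.11 (SD, n = 4) in wt_OVA and 3.92 ± 0.11 in ko_OVA, and Foxj1, the regulator of motile cilia, had 5.96 ± 0.21 and 5.86 ± 0.13. Ptprc, the pan-leukocyte marker CD45, was also present, at -0.47 to 0.88 in wt_OVA and -0.53 to 1.61 in ko_OVA. In such bulk RNA, fewer cells of a type and less RNA per cell cannot be told apart. Skeletal muscle genes varied widely, with list means of -2.39 to 3.03 in wt_OVA and -2.42 to -1.19 in ko_OVA, and with that list as a covariate 19 genes were higher and 7 lower. Adipocyte and thyroid genes had median differences of -1.45 (10 of 11 negative) and -0.78 (6 of 7 negative), with 0 called and overlapping list means. Lpl of the adipocyte list was lower on every ko_OVA array (-1.45 ± 0.33, limma adjusted p = 0.221). Neither list was used as a covariate.

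The targeted gene, Itgb6, still gave signal in the knockout. Its brightest probe read -0.56, -0.57, -0.59 and -0.64 on the wt_OVA arrays and -0.98, -1.71, -0.96 and -1.02 on the ko_OVA arrays. Every ko_OVA array lay below every wt_OVA array, with ko_OVA 2 the lowest. The difference was -0.58 ± 0.16 (SE) and did not pass over all genes (limma adjusted p = 0.547). A dimmer probe differed by -0.81, and both probes gave an exact permutation p = 0.0286 (two-sided, 4 against 4 arrays), the smallest that this design allows. The remaining Itgb6 probe was at the floor on all 8 arrays. After saline the brightest probe ran from -0.93 to -0.39 in the wild type and from -1.02 to -0.73 in the knockout, which overlapped, with a difference of -0.11 ± 0.16 (limma adjusted p = 0.971). The sources used here do not give the exons that were disrupted, so these probes do not test the labels. Itgav, the partner subunit, had a difference of -0.09 ± 0.16 (limma adjusted p = 0.966).

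Upstream sequences are shown for mast cell genes on both sides of the comparison. The 250 bases before the start of transcription are printed for the chymases Cma1, Mcpt4 and Mcpt1, which lie in 1 gene cluster on chromosome 14, and for Cpa3 and Fcer1a on other chromosomes, 5′ to 3′ on the strand of the gene, from RefSeq (GRCm38.p6). They lie at chr14:55944676-55944925 (minus strand) for Cma1, chr14:56062311-56062560 (minus) for Mcpt4, chr14:56017714-56017963 (plus) for Mcpt1, chr3:20242182-20242431 (minus) for Cpa3 and chr1:173227230-173227479 (minus) for Fcer1a. Capitals mark matches to the letters AGATAA or its form AGATAG, and to TGATAA with its form TGATAG, on either strand, which are forms of the motif bound by GATA factors.
Cma1: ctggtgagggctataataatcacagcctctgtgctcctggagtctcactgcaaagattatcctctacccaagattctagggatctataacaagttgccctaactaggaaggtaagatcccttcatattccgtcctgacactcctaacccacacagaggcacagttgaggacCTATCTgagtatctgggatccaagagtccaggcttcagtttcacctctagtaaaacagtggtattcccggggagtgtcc
Mcpt4: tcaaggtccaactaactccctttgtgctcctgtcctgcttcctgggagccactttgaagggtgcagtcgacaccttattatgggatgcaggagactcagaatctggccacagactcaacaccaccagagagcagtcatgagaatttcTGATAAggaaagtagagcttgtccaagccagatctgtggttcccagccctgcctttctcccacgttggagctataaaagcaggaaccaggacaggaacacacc
Mcpt1: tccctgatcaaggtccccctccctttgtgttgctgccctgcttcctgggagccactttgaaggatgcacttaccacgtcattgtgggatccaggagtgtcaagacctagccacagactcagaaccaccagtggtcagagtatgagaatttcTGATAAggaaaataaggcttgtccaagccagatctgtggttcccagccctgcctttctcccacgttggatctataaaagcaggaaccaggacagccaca
Cpa3: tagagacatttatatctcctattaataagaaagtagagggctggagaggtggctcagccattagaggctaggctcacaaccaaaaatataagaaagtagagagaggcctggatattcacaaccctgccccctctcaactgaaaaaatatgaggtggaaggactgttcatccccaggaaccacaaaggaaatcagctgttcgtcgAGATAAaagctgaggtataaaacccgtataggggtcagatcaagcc
Fcer1a: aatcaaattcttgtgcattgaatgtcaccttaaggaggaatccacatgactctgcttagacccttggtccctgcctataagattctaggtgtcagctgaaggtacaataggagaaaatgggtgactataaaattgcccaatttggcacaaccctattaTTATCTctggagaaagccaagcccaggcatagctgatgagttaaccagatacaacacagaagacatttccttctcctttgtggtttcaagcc

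Each of these 5 sequences held 1 match, including Mcpt1, which was lower in ko_OVA, and Cma1, which was higher. Of 23 genes looked up, the 22 called genes with a symbol and Mcpt4, 18 had an entry, some of them more than 1. Of these 18, 12 held a match in an entry, the 5 printed genes among them. The called mast cell genes Gata2 and Chst1 held none, nor did Ear1, Ear10, Ednra and Pla2r1. Counted per entry, 13 of 23 (56.5%) held a match, against 26.5% of 32851 promoters of the same length. A match is a description of letters and shows no binding.

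Connective tissue mast cell proteases were higher in ko_OVA in 5 of the 6 members tested, and the median difference of the list was 2.84 against 0.00 for all genes. Cma1, a chymase, read 1.53, 1.28, 1.64 and 1.71 on the wt_OVA arrays and 4.52, 4.46, 4.50 and 5.55 on the ko_OVA arrays. The lowest ko_OVA array stood far above the highest wt_OVA array, and ko_OVA 4 was the highest. The difference was 3.22 ± 0.32 (SE, n = 4 and 4, limma adjusted p = 0.000328).

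Cma2, the neighbouring chymase gene, read -0.47, -1.36, -0.99 and -1.04 in wt_OVA and 1.97, 2.19, 2.0 and 3.07 in ko_OVA. It had the largest rise of the 27, 3.27 ± 0.29 (limma adjusted p = 0.000192). Cpa3, the carboxypeptidase stored with these chymases, read 0.23, -0.13, -0.02 and -0.88 in wt_OVA and 2.48, 2.50, 2.58 and 2.99 in ko_OVA. Again no array of one genotype reached the range of the other, and the difference was 2.84 ± 0.29 (limma adjusted p = 0.000328).

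Tpsb2, a granule tryptase, read -0.12, 0.02, 0.12 and -0.67 in wt_OVA and 2.52, 2.37, 2.50 and 3.36 in ko_OVA, a difference of 2.85 ± 0.29 (limma adjusted p = 0.000328). Tpsg1, a tryptase anchored in the membrane, was at the floor on 3 of 4 wt_OVA arrays and read -1.06, -1.41, -1.23 and -0.12 in ko_OVA, so its difference of 2.36 depends on the floor (limma adjusted p = 0.000211). Mcpt4, the chymase that lies on the far side of Mcpt1 and Mcpt2 in the gene order, read 2.52, 0.40, 1.54 and 2.40 in wt_OVA and 3.12, 3.34, 3.09 and 3.99 in ko_OVA. Its groups did not overlap, but wt_OVA 2 lay far below the other wt_OVA arrays and the difference of 1.67 ± 0.42 did not pass (limma adjusted p = 0.388). Cma1, Cma2, Cpa3 and Tpsb2 passed under all 33 alternative settings, the only genes with a symbol to do so, while Tpsg1 lost its call under normexp background correction (adjusted p = 0.925).

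Mucosal mast cell proteases went the other way, both of 2 members being lower in ko_OVA. Mcpt1 read 2.37, -0.54, 1.02 and 1.99 on the wt_OVA arrays and -3.32, -2.04, -3.21 and -3.32 on the ko_OVA arrays. All wt_OVA arrays were above all ko_OVA arrays, of which 2 were at the floor. The means were 1.21 ± 1.30 (SD, n = 4) and -2.97 ± 0.62, and the difference of -4.18 ± 0.47 (SE, limma adjusted p = 0.000668) was the largest of the 27 in size. That SE pools the spread of all groups. Mcpt1 was at the floor on every saline array, so the SE understates the spread of the OVA arrays. With only the OVA arrays the difference did not pass (limma adjusted p = 0.116).

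Mcpt2 read -0.20, -1.43, -0.56 and -0.77 in wt_OVA and -1.97, -2.46, -2.19 and -2.01 in ko_OVA. The ranges were apart but close, with wt_OVA 2 nearest to the knockout arrays, and the difference was -1.42 ± 0.20 (limma adjusted p = 0.00537). Mcpt1 lost its call under normexp and with only the 8 OVA arrays, and Mcpt2 lost it under those, under the series matrix values, with the lower floor and by median scaling (adjusted p up to 0.999). In the order of genes on chromosome 14, Cma1 and Cma2, higher in ko_OVA, come before Mcpt1 and Mcpt2, lower in ko_OVA, and Mcpt4, which did not pass, comes after them. Ctsg, a further protease gene of the cluster, had a difference of -0.11 and Gzmb, a granzyme, of 0.03, and neither passed.

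**Figure D1:**
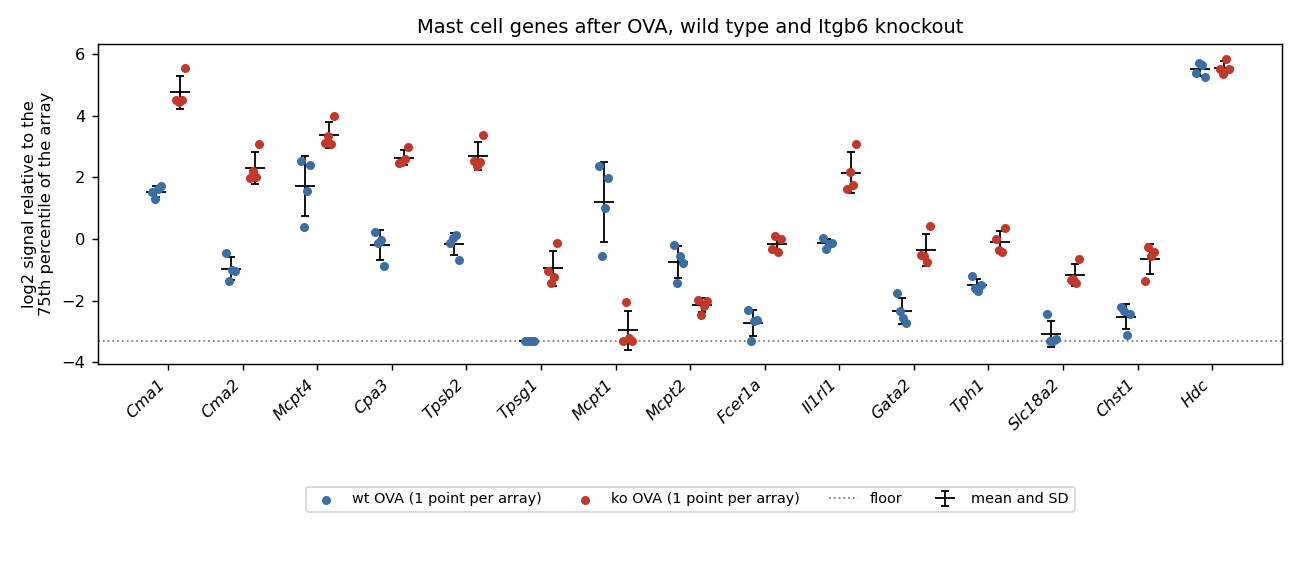
Array values (log2, scaled to the 75th percentile of each array) of 15 mast cell genes, with 1 point per array for wt_OVA (blue) and ko_OVA (red), the mean and SD in black and the floor of -3.32 dotted. Red lies above blue for Cma1, Cma2, Cpa3 and Tpsb2, below it for Mcpt1 and Mcpt2, and among it for Hdc.

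Among receptors and identity factors of mast cells, 3 of 11 members tested were higher in ko_OVA and 0 lower, with a median of 0.28. Fcer1a, the IgE-binding chain of the high-affinity IgE receptor, read -2.32, -3.32, -2.68 and -2.64 in wt_OVA and -0.33, 0.08, -0.42 and 0.00 in ko_OVA. It had the smallest p of all genes, with a difference of 2.57 ± 0.20 (limma adjusted p = 5.58e-05), and lost its call only under normexp (adjusted p = 0.065). Fcer1g, the signalling chain of that receptor, which other leukocytes share, differed by 0.28 ± 0.33 with overlapping groups.

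Il1rl1, the receptor of IL-33, read 0.05, -0.32, -0.17 and -0.13 in wt_OVA and 1.61, 2.16, 1.75 and 3.09 in ko_OVA. The spread was wider in the knockout, and the difference was 2.30 ± 0.32 (limma adjusted p = 0.0049). The other Il1rl1 probes did not pass the filter and were at the floor on all 8 OVA arrays. Gata2, a transcription factor of the mast cell lineage, read -1.75, -2.34, -2.57 and -2.72 in wt_OVA and -0.53, -0.54, -0.74 and 0.42 in ko_OVA, a difference of 2.0 ± 0.27 (limma adjusted p = 0.00311). With array position as a fixed block both lost their calls, as they did with only the 8 OVA arrays. Il1rl1 also lost its call with slide as a fixed block and when wt_OVA 1 and 2 were left out together (2.30, limma adjusted p = 0.085), with or without ko_OVA 4, and Gata2 lost it under normexp (1.17, limma adjusted p = 0.566).

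Mrgprb2, a receptor for basic secretagogues on connective tissue mast cells, was not well above background on any wt_OVA array and was at least 1.70-fold higher in ko_OVA, without passing (limma adjusted p = 0.109). Its relative Mrgprb1 was at the floor on all 16 arrays and could not be tested there. With the lower floor of -6.51 it read -6.46, -5.60, -6.51 and -6.51 in wt_OVA and -4.09, -4.34, -4.01 and -3.53 in ko_OVA, a difference of 2.28 ± 0.20 (limma adjusted p = 0.000106 in that setting), with 0 of 4 and 2 of 4 arrays well above background. The wild type values are below background, so the size of this difference depends on the floor, as does that of Mrgprb2, which was 2.81 and passed with the lower floor (limma adjusted p = 0.000106). Mrgprb2 also passed with median scaling (1.03, limma adjusted p = 0.0188), quantile normalization (0.99, limma adjusted p = 0.00865) and the series matrix values (1.42, limma adjusted p = 4.8e-05). It passed without ko_saline 1 and without ko_OVA 3 as well, and in no other setting. Ms4a2, the beta chain of the IgE receptor, was like Mrgprb1 at the floor on all 16 arrays and had 1.09 ± 0.45 (limma adjusted p = 0.928 with the lower floor). The difference of Gata1, Mitf, Hpgds, Adora3, Csf2rb and Il3ra lay between -0.29 and 0.42, with overlapping groups.

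Genes of amine handling and granule content showed 3 of 13 members higher, 0 lower and a median of 0.26. Tph1, which makes serotonin, read -1.21, -1.59, -1.69 and -1.49 in wt_OVA and -0.01, -0.35, -0.41 and 0.37 in ko_OVA, a difference of 1.39 ± 0.16 (limma adjusted p = 0.000673). Slc18a2, which loads amines into granules, was at the floor on 2 of 4 wt_OVA arrays and -1.42 to -0.64 in ko_OVA, a difference of 1.90 ± 0.21 (limma adjusted p = 0.000503). Chst1, a sulfotransferase, read -3.11 to -2.21 in wt_OVA and -1.36 to -0.26 in ko_OVA, a difference of 1.88 ± 0.23 (limma adjusted p = 0.00142). All 3 lost their calls with only the 8 OVA arrays and under normexp, where Slc18a2 had 0.88 (limma adjusted p = 0.999), Tph1 0.90 (limma adjusted p = 0.916) and Chst1 1.03 (limma adjusted p = 0.566). Tph1 also lost its call with the lower floor (limma adjusted p = 0.409), and its dimmer probe was at the floor on all 8 OVA arrays.

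Hdc, which makes histamine, did not pass (limma adjusted p = 0.988). It read 5.38, 5.72, 5.65 and 5.27 in wt_OVA and 5.52, 5.35, 5.86 and 5.53 in ko_OVA, with a difference of 0.06 and a 95% confidence interval of -0.31 to 0.43. The wt_saline mean of Hdc was 5.14, while that of Cpa3 was -2.45 and Fcer1a was at the floor on all 4 of those arrays. Which cells gave the Hdc signal was not tested, so it does not show whether histamine synthesis in mast cells differed. Slc6a4, the serotonin transporter, was at the floor on all 4 wt_OVA arrays and higher on every ko_OVA array, with 0.79 ± 0.22 (limma adjusted p = 0.503). Srgn, the core protein of granule proteoglycans, ran from 0.82 to 2.36 in wt_OVA and from 1.83 to 5.10 in ko_OVA, overlapping (1.67, limma adjusted p = 0.878). Across the 4 mast cell lists, 40 genes were listed and 32 tested: 11 were higher, 2 lower and 19 did not pass. Of the other 8, Kit, Tal1 and Tpsab1 had no matched probe, Mcpt9 and Prss34 were too dim, and Ms4a2, Mrgprb1 and Cysltr1 were at the floor on every array. No matched probe means that no probe led to that symbol, and the array may hold these genes under identifiers without a symbol. Kitl, the growth factor of mast cells made by epithelium and stroma, had 0.34 ± 0.17 (limma adjusted p = 0.884).

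Beyond mast cells, ribonucleases of the eosinophil-associated family were lower in ko_OVA in 2 of 9 members tested, and all 9 differences were negative, with a median of -0.55. Ear10 read -0.30, -0.75, -0.80 and -0.42 in wt_OVA and was at the floor on 3 of 4 ko_OVA arrays and -2.38 on ko_OVA 4, a difference of -2.52 ± 0.27 (limma adjusted p = 0.000431). Ear1 read 0.89, 0.19, 0.45 and 0.83 in wt_OVA and was at the floor on 3 of 4 ko_OVA arrays and -0.92 on ko_OVA 4. Its difference was -3.31 ± 0.54 (limma adjusted p = 0.0202), and this call was lost in 6 of the fits that leave out 1 array, those without wt_OVA 1, 3 or 4 or ko_OVA 1, 2 or 3. It was lost with slide as a fixed block and in 14 of 33 settings in all, and Ear10 was lost under normexp alone (-1.90, limma adjusted p = 0.12). The members of this family are similar in sequence, so probes may read more than 1 of them.

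These ribonucleases are made by macrophages as well as by eosinophils. The alveolar macrophage list, which also holds Ear1 and Ear10, had a median of -0.68, with 11 of 13 differences negative and those 2 genes the only calls. Its means ran from -0.84 to -0.52 in wt_OVA and from -1.82 to -1.16 in ko_OVA. Itgax, an integrin of macrophages and dendritic cells, had -0.91 ± 0.32 and overlapped (limma adjusted p = 0.884). The eosinophil list had 4 members tested and none called. Siglecf, an eosinophil and alveolar macrophage receptor, was at the floor on all 4 wt_OVA and 3 of 4 ko_OVA arrays, and Epx, Prg2 and Prg3, the granule proteins of eosinophils, were below the filter. The part of these cells in the Ear values was not tested.

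Of the remaining called genes with a symbol, Ednra, an endothelin receptor, read -1.57, -1.61, -1.80 and -1.26 in wt_OVA and -0.25, -0.40, 0.01 and 0.13 in ko_OVA, a difference of 1.44 ± 0.16 (limma adjusted p = 0.000673). A dimmer Ednra probe did not pass the filter and was at the floor on all 8 OVA arrays. Gpr162, an orphan receptor, was higher by 1.82 ± 0.22 (limma adjusted p = 0.00103). Ndrg1, a gene induced by stress and low oxygen, read 1.01 to 1.42 in wt_OVA and 1.97 to 2.47 in ko_OVA, a difference of 0.96 ± 0.13 (limma adjusted p = 0.0029). These groups did not overlap either. All 3 genes were among the 17 of 22 calls lost under normexp. Gpr162 and Ndrg1 also lost their calls with only the 8 OVA arrays, and Ndrg1 with median scaling. Ednra and Ndrg1 were also lost when wt_OVA 1, wt_OVA 2 and ko_OVA 4 were left out together, a setting chosen after seeing the data.

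Chst1 and the other 4 called genes lie on chromosome 2, which also carries Itgb6. Pla2r1, a phospholipase A2 receptor whose gene is 0.045 Mb from Itgb6, was not well above background on any wt_OVA array, read -1.75, -2.52, -2.48 and -2.24 in ko_OVA, and was at least 2.10-fold higher (limma adjusted p = 0.0034). Abcb11, a bile salt transporter 8.52 Mb away, read -2.24, -2.03, -2.53 and -2.64 in wt_OVA and -3.32, -2.99, -3.11 and -3.32 in ko_OVA, a difference of -0.82 ± 0.12 (limma adjusted p = 0.00537) that lies near the floor. 1700001O22Rik, 29.8 Mb away, was lower by -1.53 ± 0.23 (limma adjusted p = 0.00994), and Enkur, a ciliary and sperm protein 39.4 Mb away, was higher by 1.17 ± 0.15 (limma adjusted p = 0.0023). Of the 33 settings, Abcb11 lost its call in 8, 1700001O22Rik in 6, Pla2r1 in 5, Enkur in 3 and Chst1 in 2, and all 5 lost it under normexp and with only the 8 OVA arrays.

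Chromosome 2 held 5 of the 22 called genes with a symbol (22.7%) and 7.95% of those tested, and chromosome 14 held 6 (27.3%) and 3.42%. At an unadjusted p under 0.001 there were 9 of 1022 genes on chromosome 2 (0.881%), against 0.296% on the other chromosomes. Of 55 genes tested within 10 Mb of Itgb6, Pla2r1 was called higher and Abcb11 lower. Passenger alleles that came with the targeted locus and effects of the missing integrin cannot be told apart for these genes in this design.

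**Figure D2:**
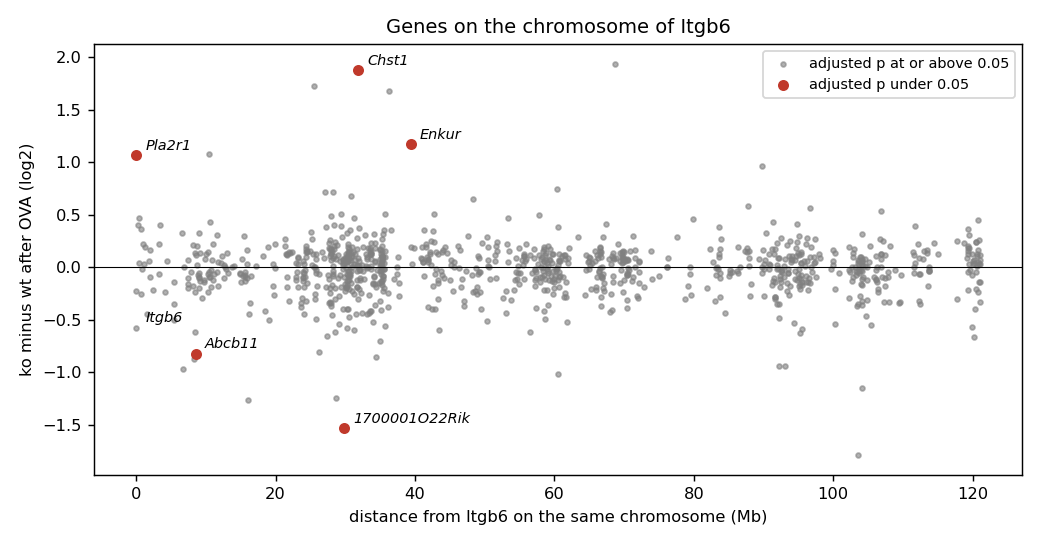
Difference between ko_OVA and wt_OVA (log2) against the distance from Itgb6 in Mb for 1022 genes of its chromosome, with 1 point per gene and the 5 called genes in red. Pla2r1 lies next to Itgb6, and the other called genes lie between 8.52 and 39.4 Mb away.

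**Figure D3:**
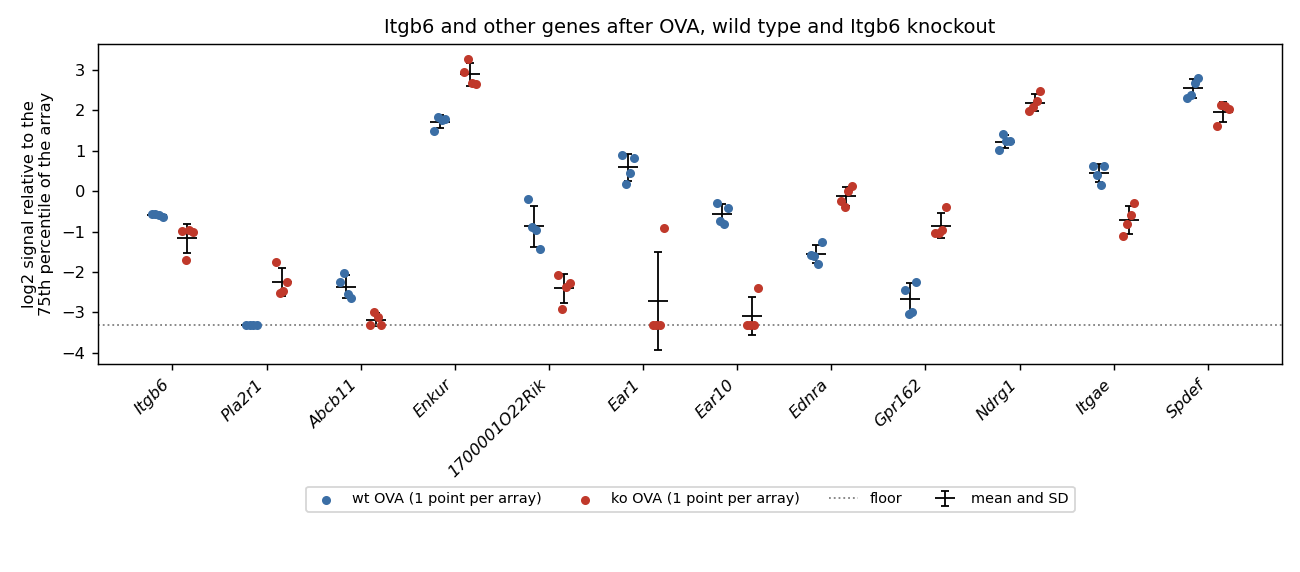
Array values (log2, scaled to the 75th percentile of each array) of Itgb6 and 11 genes outside the mast cell lists, drawn as for the mast cell genes with 1 point per array. For Itgb6 the ko_OVA arrays lie below all wt_OVA arrays, and Ear1 and Ear10 are at the floor on 3 of 4 ko_OVA arrays.

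The epithelial and type 2 response lists held few called genes. Only 0.145% of all genes tested were called, so a list of this size can hold none without being particular. Of 20 mucous cell genes none was called and the median was -0.24. Muc5ac, the gel-forming mucin of goblet cells, ran from 2.64 to 3.96 in wt_OVA and from 1.17 to 4.22 in ko_OVA, with a difference of -0.16 and a 95% confidence interval of -1.29 to 0.98. Clca1, a secreted goblet cell product, had 3 usable arrays in each group and -0.38 ± 0.87. Spdef, the transcription factor of goblet cells, was lower on every ko_OVA array (1.60 to 2.12 against 2.30 to 2.80), and the difference of -0.57 ± 0.16 did not pass (limma adjusted p = 0.562). The interval of Muc5ac includes a 2-fold lower level, so these values do not show that the genotypes are alike.

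Club cell genes had a median of 0.16 over 24 members, ciliated cell genes -0.18 over 15 and basal cell genes 0.17 over 13, with 0 calls in each. Endoplasmic reticulum stress genes had a median of -0.20, with 20 of 22 differences negative, and Hspa5, the chaperone BiP, had -0.49 ± 0.14 over 3 arrays a group (limma adjusted p = 0.669). Genes of antigen presentation by MHC class II had a median of -0.46 with 9 of 10 differences negative. None of these was called. Under median scaling, which moved all genes by 0.323, the medians of the mucous, ciliated and endoplasmic reticulum stress lists turned to 0.07, 0.16 and 0.15, and those of the MHC class II, club and basal lists were -0.12, 0.53 and 0.52.

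Of 21 type 2 response genes only Il1rl1, which the mast cell list also holds, was called, and the median was -0.03. Chil3, a chitinase-like protein of macrophages, ran from 5.57 to 7.10 in wt_OVA and from 2.46 to 6.75 in ko_OVA (-1.74 ± 0.89, limma adjusted p = 0.884). Genes of TGF-beta ligands, receptors and latency had a median of -0.02 over 28 and TGF-beta targets 0.02 over 27, with 0 called. Itgae, the alpha E integrin of T cells and mucosal mast cells and a known target of TGF-beta, was lower on every ko_OVA array, reading 0.63, 0.41, 0.15 and 0.61 in wt_OVA and -1.12, -0.81, -0.60 and -0.30 in ko_OVA. Its difference of -1.16 ± 0.23 did not pass (limma adjusted p = 0.104). In all, 35 of the 39 lists other than those of mast cells held no called gene, where 0.145% of all genes tested were called. At that share most short lists hold no call, so this does not show that their genes are alike in the genotypes.

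**Figure D4:**
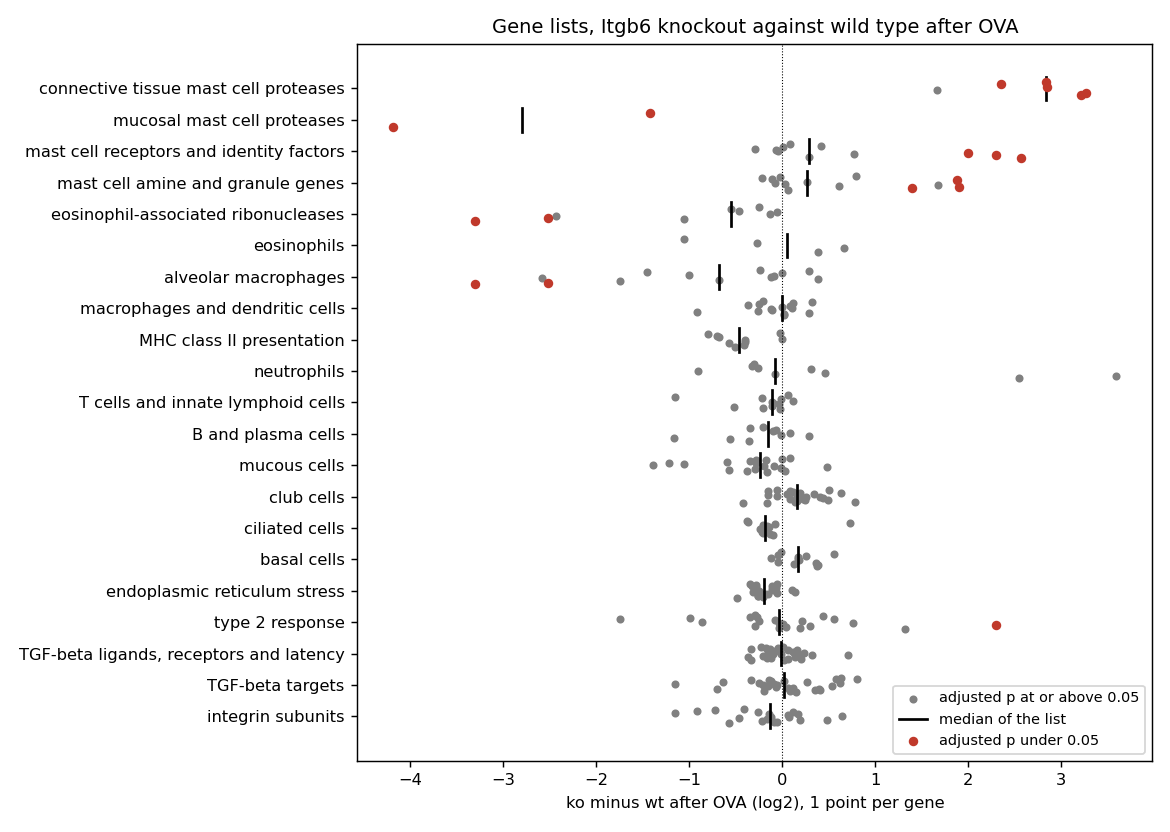
Difference between ko_OVA and wt_OVA (log2) for the members of 21 gene lists, with 1 point per gene, called genes in red and the median of each list as a black bar. The medians of the connective tissue and mucosal protease lists stand at 2.84 and -2.80, and those of the epithelial lists lie near 0.

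The same genotypes after saline give the background of each difference. Of the 27 genes called after OVA, 21 were also called after saline (77.8%, and 70% of the 30 saline calls, which are 0.162% of the genes tested), all with the same sign. Cpa3 differed by 5.19 after saline and 2.84 after OVA, Tpsb2 by 4.72 and 2.85, and Cma1 by 4.75 and 3.22. In the wild type the mean of Cma1 was -0.04 with saline and 1.54 with OVA, and in the knockout it was 4.72 with saline and 4.76 with OVA. The knockout means lay close together, and the wild type mean was higher with OVA.

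Fcer1a (2.68 and 2.57) and Slc18a2 (2.09 and 1.90) had nearly the same difference with both agents, although wt_saline was at the floor on all 4 arrays for both. Mcpt1 was at the floor on all 8 saline arrays and Mcpt2 on 3 of 4 in each genotype, so the floor hides any difference between the genotypes after saline. The floor also limits Abcb11 (0.00, at the floor throughout) and Pla2r1 (0.27) after saline. For Pla2r1 no wt_saline array rose above it, and ko_saline ran from -3.32 to -2.85. Ndrg1 differed by 0.45 after saline and did not pass (limma adjusted p = 0.43). Its saline groups did not overlap, with 1.30 to 1.64 in wt_saline and 1.67 to 2.07 in ko_saline. The test of the difference between the agents, an interaction over all 16 arrays, called 0 of 18566 genes in limma (569 at an unadjusted p under 0.05, among them 16 of the 27). For Mcpt1 the interaction was -4.18 with an adjusted p of 0.19, so no gene is shown to differ more after OVA than after saline.

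**Figure D5:**
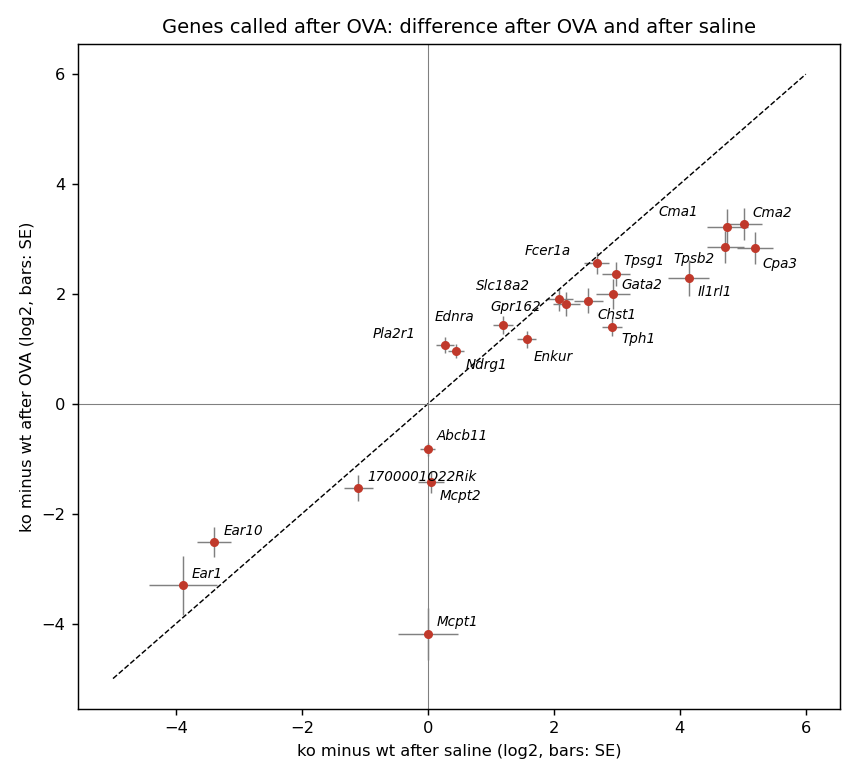
Difference between knockout and wild type (log2) after OVA against that after saline for the 22 called genes with a symbol, with SE bars and a dashed line of equality. Cpa3, Cma1, Cma2 and Tpsb2 lie below the line at 4.72 to 5.19 after saline, and Mcpt1 and Mcpt2 lie near 0 after saline.

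Arrays of both groups were present on 3 slides, and in each of these all 27 differences had the same sign as over all arrays. This follows from the lack of overlap between the groups for these 27 and is no separate test of the slides. Within these slides Cma1 differed by 3.22, 2.81 and 3.97, Cpa3 by 2.71, 3.35 and 2.89, and Mcpt1 by -2.67, -5.31 and -5.01. The array ko_OVA 2 shares its slide with no wt_OVA array.

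Of the 27, 5 transcripts carry only a database identifier in the files and the reference. They were not assigned to genes, so the counts of the gene lists leave them out. NM_031187 was higher by 2.49 ± 0.25 (limma adjusted p = 0.000328) and passed under all 33 alternatives. NM_017388 (-2.93) and ENSMUST00000113532 (-1.89) were lower, and M59764 (1.41) and Y00864 (1.07) were higher and near the threshold. Of the 33 settings, M59764 lost its call in 22 and Y00864 in 26, among them 14 and 13 fits that leave out 1 array. NM_017388 lost its call in 5 settings and ENSMUST00000113532 in 1.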

How the data were processed

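RNA of brushed airway epithelium was hybridized to 16 one-colour Agilent arrays. The deposited files hold background-subtracted intensity per spot; Feature Extraction is 10.5.1.1 in their headers, whereas the submitters' processing notes give 10.1. The series table deposited by the authors holds log2 values and was used as an alternative.

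Control and outlier-flagged spots were left out. Each array was scaled to its 75th percentile, floored and log2 transformed. A probe was kept if 4 or more of the 16 arrays called it well above background, which left 25615 of 41174; 24844 probes matched a RefSeq symbol (GRCm38.p6). The brightest probe stood for each gene. For the floor, the lowest signal well above background was found on each array and the highest of these 16 taken, and 841 of 19407 genes lay at it on all 16 arrays and were not tested; with the lower floor, 1 of them was higher and 2 lower in ko_OVA.

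All 16 arrays were fitted in limma 3.58.1 (R 4.3.3) with 1 mean per group and Benjamini-Hochberg adjustment. The groups share 1 estimate of the spread per gene, and a group at the floor on all its arrays adds no spread to it. This lowers the SE of genes at the floor after saline, such as Mcpt1 and Abcb11. The fit was tested on simulated data. A gene with no array of a group well above background has only a lower bound. Named genes were Itgb6, the tested mast cell genes, the called genes with a symbol and, in every other list, up to 4 called members or the one with the smallest p; other genes, such as markers, Siglecf, Kitl and Mrgprb1, were added as context. Members and lists were chosen with earlier results of these data known. The alternatives were other background corrections, scalings, filters and floors, slide, array position or replicate number as a block, a muscle covariate and arrays left out. The number of arrays limits the precision.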

Additional observations from a re-analysis of the deposited data

Results flagged for a closer look

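Single arrays that stood apart from the other arrays of their group were found in 33 of 235 groups of values, where chance gives about 1 in 20, and in 14 of the 33 the other arrays were all at the floor. ko_OVA 4, the array with the weakest signal, was highest for Cma1 (5.55), Tpsb2 (3.36), Slc18a2 (-0.64), Gpr162 (-0.40), Ear1 (-0.92), Ear10 (-2.38), Ear6 (0.30), Gata1 (-2.69), Adora3 (-3.30), NM_017388 (-1.51) and Y00864 (0.72). It was also highest in the means of the connective tissue protease list (3.14), the eosinophil list (0.035) and the alveolar macrophage list (-1.16). The part of signal strength in these values was not tested.

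ko_OVA 2 was lowest for Itgb6 (-1.71) and in the mean of the alveolar epithelium list (1.80), and highest for Mcpt1 (-2.04) and in the mean of the mucosal protease list (-2.25). ko_OVA 1 was lowest for Spdef (1.60) and highest for Tnfrsf17 (-3.18). wt_OVA 1 was highest for Slc18a2 (-2.44), Gata1 (-2.49), Hpgds (-2.17), Ctsg (-2.89), Il4 (-2.92) and Lgals7 (-1.36), and in the means of the basophil list (-3.12) and the tuft and neuroendocrine list (-0.80), and lowest for Ccno (1.60). wt_OVA 2 was highest for Tpsg1 (-3.31) and Rpl13a (5.54), and wt_OVA 4 for Gzmb (-2.66) and Ndst2 (1.11).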

How the results depend on the processing

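Against 19 genes higher and 8 lower, normexp on the median spot signal gave 6 and 1, with 7 of the 27 calls shared, and only the 8 OVA arrays gave 8 and 1, with 9 shared. Scaling to the array median gave 24 and 5 and shifted all genes by 0.323, and the series matrix values gave 31 higher. The other settings stayed within 1.5 times, and leaving out single arrays gave 17 to 22 higher and 7 to 12 lower. The interaction called 1 gene with slide as a fixed block and 0 to 3 with single arrays left out. In settings added after seeing the data it called 2 without wt_OVA 1 and 2, and 4 without those and ko_OVA 4. No called gene reversed its sign under any of these.

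Array numbers are shared between the genotypes. Deviations from the group means correlated at -0.03, 0.04, -0.08 and 0.40 between same-numbered wt_OVA and ko_OVA arrays. These values do not settle whether the numbers pair the arrays. With a replicate block 17 genes were higher and 7 lower, and Ear1 was the only call with a symbol lost. Weak signal limits what can be said of genes at the floor.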
